A study of Homo sapiens with 8 samples.

Results

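The collagen genes of human tumors grown in mice were examined in 8 tumors, 4 from mice given nicotinamide mononucleotide (NMN) and 4 from mice given vehicle. The 44 genes were taken by name from the 18164 genes of the expression table: every symbol made of COL, a number, A and a number, with no other suffix. They comprise 11 fibrillar collagens, 6 basement membrane collagens (type IV), 5 type VI collagens and 22 others. The tumors came from HCC1937, an established triple-negative breast cancer line, so all 8 share 1 line; 1000000 cells were placed in the inguinal mammary fat pad of NCG mice. NCG mice are NOD/ShiLtJGpt animals with edited Prkdc and Il2rg, which leaves them without T, B and natural killer cells but with their own fibroblasts, vessels and myeloid cells. Mice were assigned to treatment at a tumor volume of 100 to 150 mm3. One group then received NMN, from which cells make NAD+, dosed at 500 mg/kg/day, and the other vehicle. The tumors are called NMN 1 to 4 and Vehicle 1 to 4. The sources used here do not say that each tumor came from its own mouse, so the p-values measure only how far these samples spread, which may be technical.

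Collagens are secreted or membrane proteins in which 3 chains wind into a triple helix, each chain encoded by its own gene. Fibrillar collagens form the banded fibers of connective tissue and are made mainly by fibroblasts. Type IV collagen forms the sheet-like network of basement membranes under epithelium and around vessels, and type VI forms beaded microfilaments close to cells. Other classes sit on fibril surfaces, anchor epithelium to the tissue below or span the cell membrane. In breast tumors collagens are best known as products of the stroma, although carcinoma cells express several of them.

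Levels are given in TPM, each library's transcript shares scaled to a fixed total (1000000) and per gene length, so levels of different genes can be compared. Read depth cannot be recovered from TPM and is unknown here, and precision is set by the 4 tumors in a group. A gene was tested when it reached 1 TPM in at least 4 of the 8 tumors, and fold changes are differences of log2(TPM + 1), NMN minus Vehicle, as the estimate ± its standard error. On that scale the change of a low gene is understated. Counts of genes in each direction are by the sign of this difference, which for a few genes near 0 is not the sign of the difference in mean TPM. Of 13358 genes tested with limma, 0 (0.00%) passed at an adjusted p under 0.05. At an unadjusted p under 0.05 stood 4.79% of genes with a log2 fold change above 0 and 2.15% with one below 0 (640 and 287 genes, or 640 and 514 after quantile normalization). HCC1937's epithelial identity was plain in the data: the summed level of 14 epithelial and basal markers, such as the keratins KRT5 and KRT14, was between 11272 and 15412 TPM in 7 tumors and 23604 TPM in Vehicle 4.

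Of the 44 collagens, 23 were tested, and 22 of these were at 1 TPM or more in every tumor; COL9A3 was under 1 TPM in Vehicle 4. None of the 23 passed the test (smallest adjusted p = 0.268, for COL6A1). COL6A1 and COL6A2, chains of type VI collagen, were higher in all 4 NMN tumors than in any Vehicle tumor. COL1A1, COL1A2 and COL3A1, the chains of the main fibers of types I and III, had lower means in NMN tumors, with NMN 4 inside the Vehicle range. Log2 fold changes were above 0 for 8 tested collagens and below 0 for 15 (median -0.26), whereas over all genes tested 51.0% were above and 49.0% below, with a median of 0.0040. COL18A1 is among the 8 by its log2 fold change of 0.02, although its mean TPM was lower in NMN tumors. At an unadjusted p under 0.05 stood 3 collagens with higher means (COL6A1, COL6A2 and COL9A2) and 3 with lower means (COL1A1, COL1A2 and COL3A1). The 3 lower ones became 7 without NMN 4, where 4.88% of all genes were lower at that p, 5 without Vehicle 2 (2.67%) and 4 without Vehicle 1 (2.90%). They became 2 without NMN 1 (1.41%), NMN 2 (1.44%), NMN 3 (1.41%), Vehicle 3 (1.77%) or Vehicle 4 (2.19%). The 3 higher ones became 2 without NMN 3, where 379 of all genes, against 640, were higher at that p. With any other tumor left out they stayed 3. In no tested collagen did all 4 NMN tumors lie below all 4 Vehicle tumors, and in 2 they all lay above; over all genes tested these shares were 0.966% and 2.08%.

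**Figure D1:**
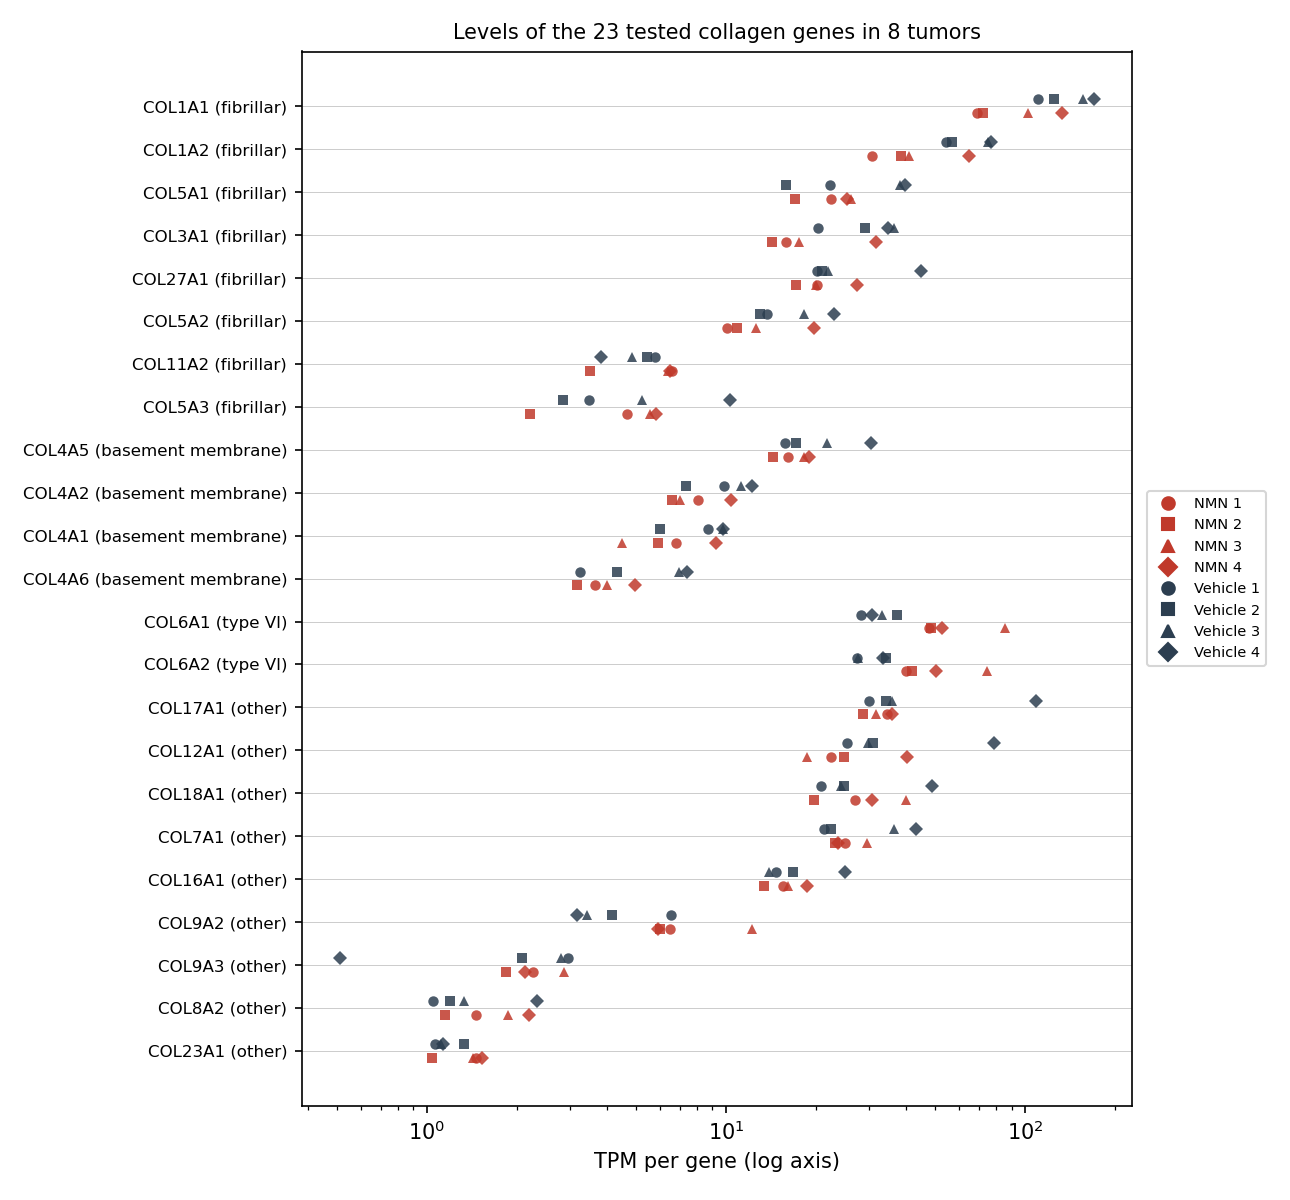
TPM (log axis) of the 23 tested collagen genes, grouped by class, in the 4 NMN tumors (red) and the 4 Vehicle tumors (dark), with 1 marker shape per tumor number. COL6A1 and COL6A2 are the genes in which the red and dark points do not overlap, and Vehicle 4 (dark diamond) is the highest tumor for 16 of the 23 genes.

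Collagen transcripts made up a small part of each transcriptome, between 0.0420% and 0.0842% of all TPM. The summed level of the 44 genes was 442, 420, 584 and 628 TPM in NMN 1 to 4 and 473, 518, 622 and 842 TPM in Vehicle 1 to 4, so the groups overlapped and Vehicle 4 was the highest. COL1A1 led in every tumor and held 20.7% of the collagen total, taken on means over the 8 tumors. The first 5 genes, COL1A1, COL1A2, COL6A1, COL17A1 and COL6A2, held 53.2%. Mean levels reached 10 TPM in 14 collagens and 100 TPM in COL1A1 alone.

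The fibrillar class was the largest, at 40.8%, 42.1%, 39.8% and 50.3% of the collagen total in NMN 1 to 4 and 53.4%, 52.2%, 57.7% and 48.0% in Vehicle 1 to 4. The type VI class held 19.9%, 21.5%, 27.5% and 16.5% in NMN 1 to 4 and 11.8%, 13.9%, 9.81% and 7.66% in Vehicle 1 to 4, with every NMN tumor above every Vehicle tumor. Type IV made up 5.83% to 8.0% and the other class 24.5% to 37.2%, and in both the groups overlapped. Shares of 1 total are not independent of each other, so a larger type VI share lowers the rest.

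**Figure D2:**
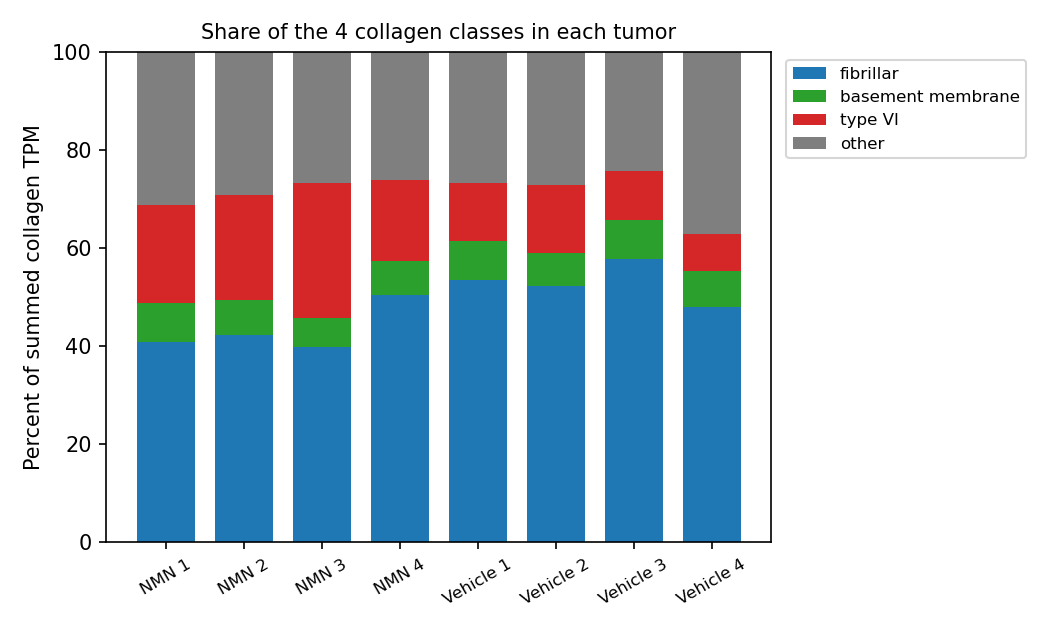
Stacked bars of the percent of summed collagen TPM held by each of the 4 classes, 1 bar per tumor. The type VI share runs from 16.5% to 27.5% in the NMN tumors and from 7.66% to 13.9% in the Vehicle tumors.

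Type VI collagen showed the clearest separation between the groups. COL6A1 (chromosome 21, 45981737 to 46005050, plus strand), which encodes the alpha 1 chain, was at 47.8, 48.2, 85.8 and 52.7 TPM in NMN 1 to 4, against 28.3, 37.2, 33.2 and 30.7 TPM in Vehicle 1 to 4. The groups did not overlap, and NMN 3 stood well above the other NMN tumors. The group levels were 58.6 ± 18.3 TPM (SD, n = 4) and 32.3 ± 3.82 TPM (SD, n = 4), a ratio of means of 1.81. The log2 fold change came to 0.80 ± 0.18 (95% interval 0.41 to 1.19; limma, unadjusted p = 0.00081, adjusted p = 0.268), and 0.61 without NMN 3.

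COL6A2, the alpha 2 chain gene on the same strand of chromosome 21 (46098097 to 46132849), was likewise lowest in Vehicle 1 and highest in NMN 3. Its level was 40.0, 41.8, 74.4 and 50.5 TPM in NMN 1 to 4 and 27.4, 34.3, 27.6 and 33.5 TPM in Vehicle 1 to 4. The groups again did not overlap. The log2 fold change came to 0.69 ± 0.18 (95% interval 0.30 to 1.09; adjusted p = 0.330), and 0.51 without NMN 3. The 250 bases before the COL6A2 start in RefSeq (GRCh38.p14, chr21:46097862-46098111, plus strand) are shown because COL6A2 is 1 of the 2 collagens whose groups did not overlap. Capitals mark GGGCGG (the GC box), CCAAT and TATAAA (the TATA box) on either strand.
COL6A2 upstream: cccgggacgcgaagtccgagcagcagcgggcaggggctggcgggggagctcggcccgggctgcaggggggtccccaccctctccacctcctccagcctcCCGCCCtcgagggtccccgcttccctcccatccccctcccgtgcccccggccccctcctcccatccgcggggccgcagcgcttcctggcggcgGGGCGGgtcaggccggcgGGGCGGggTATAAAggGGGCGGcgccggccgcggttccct
The window holds GGGCGG 3 times forward and 1 time reversed, TATAAA 1 time forward, and CCAAT on neither strand. Of 35116 RefSeq windows of the same 250 bases, 42.6% hold GGGCGG, 10.7% TATAAA and 32.0% CCAAT on either strand. A match of letters is a description only.

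Transcripts for the alpha 3 chain of type VI were nearly missing among the human genes of the same tumors. Protein was not measured, and chains made by mouse cells were not examined. Assembly of type VI collagen joins alpha 1 and alpha 2 with one more chain, most often alpha 3, which COL6A3 encodes on chromosome 2. COL6A3 was at 0.10, 0.13, 0.08 and 0.18 TPM in NMN 1 to 4, against 0.07, 0.19, 0.23 and 0.18 TPM in Vehicle 1 to 4, with overlapping groups and under the filter in all 8. That is between 0.093% and 0.69% of the COL6A1 level of the same tumor. COL6A5 and COL6A6, genes of chains that can replace alpha 3, did not go above 0.03 and 0.04 TPM in any tumor. The type VI total of each tumor was therefore almost wholly COL6A1 and COL6A2, with a median log2 fold change of 0.75 over those 2 genes and of 0.0037 when the 3 low genes were counted too.

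Some markers of epithelial and of other cell types, named here after their values were seen, also lay higher in every NMN tumor than in any Vehicle tumor. Over all genes tested, 2.08% did so. Among the 14 epithelial and basal markers 7 had log2 fold changes above 0 and 7 below 0, and 4 (EPCAM, KRT8, KRT18 and CLDN4) were above 0 at an unadjusted p under 0.05. The simple-epithelium keratin KRT8 was at 879, 707, 909 and 841 TPM in NMN 1 to 4, against 542, 315, 537 and 265 TPM in Vehicle 1 to 4 (log2 fold change 1.07 ± 0.21, limma, adjusted p = 0.221). The groups of KRT8 and of the tight junction gene CLDN4 (0.52 ± 0.14) did not overlap. The 10 endothelial markers summed to between 10.4 and 12.4 TPM in the NMN and to between 6.97 and 12.4 TPM in the Vehicle tumors. Of these, 3 were tested, 2 with log2 fold changes above 0 and 1, VWF, below 0 (median 0.05). KDR, a receptor of vascular growth factors, did not overlap between groups, at 2.92 to 5.26 TPM in NMN and 1.05 to 2.60 TPM in Vehicle tumors. TEK, under the filter, did not overlap the other way, at 0.06 to 0.24 TPM in NMN and 0.31 to 0.54 TPM in Vehicle tumors. Of 7 tested pericyte and smooth muscle markers 1, MCAM (0.35 ± 0.14), had a log2 fold change above 0 and 6 below 0 (median -0.11). The MCAM groups did not overlap, with NMN above. CDH19, a Schwann cell marker under the filter, did not overlap either, with NMN above. The adipocyte markers LPL and PLIN4, under the filter, and the muscle marker MYH4 did not overlap the other way, with NMN below. The part of these cell types in the COL6A1 and COL6A2 values was not tested.

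The fibers of types I and III were led by COL1A1 (chromosome 17, 50183289 to 50201632, minus strand), the alpha 1 chain of type I collagen. It stood at 69.0, 72.1, 102 and 133 TPM in NMN 1 to 4, against 110, 125, 156 and 169 TPM in Vehicle 1 to 4. NMN 1, NMN 2 and NMN 3 were the lowest tumors of the 8, and NMN 4 lay between Vehicle 2 and Vehicle 3. The group levels were 94.0 ± 29.8 and 140 ± 27.5 TPM (SD, n = 4 each), and the log2 fold change came to -0.60 ± 0.21 (95% interval -1.05 to -0.15; adjusted p = 0.496).

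COL1A2 (chromosome 7, 94394561 to 94431232, plus strand), the alpha 2 chain of type I, was at 30.7, 38.4, 41.0 and 64.7 TPM in NMN 1 to 4, against 54.4, 56.7, 74.97 and 76.9 TPM in Vehicle 1 to 4. The order was the same, with NMN 1 to 3 lowest and NMN 4 between Vehicle 2 and Vehicle 3. Its log2 fold change came to -0.61 ± 0.20 (95% interval -1.06 to -0.17; adjusted p = 0.471). COL3A1, the single chain of type III collagen, which mixes with type I in soft tissue, was at 15.9, 14.2, 17.5 and 31.8 TPM in NMN 1 to 4, against 20.3, 29.04, 36.5 and 34.7 TPM in Vehicle 1 to 4. Here too NMN 1 to 3 were lowest, and NMN 4 lay within the Vehicle range. COL3A1, chosen for full values after they were seen, had a log2 fold change of -0.61 ± 0.24 (95% interval -1.15 to -0.08; adjusted p = 0.624).

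The minor fibrillar genes had smaller fold changes. COL5A1, COL5A2 and COL5A3 encode type V collagen, which sits inside type I fibrils and limits their width, and had log2 fold changes of -0.26 ± 0.26, -0.34 ± 0.23 and -0.15 ± 0.34. COL27A1, a fibrillar collagen of cartilage, had one of -0.27 ± 0.24, which was -0.0066 without Vehicle 4. COL11A2, of type XI collagen, was the only tested fibrillar gene with a log2 fold change above 0, at 0.16 ± 0.20. In 7 of the 8 tested fibrillar genes it was below 0 (median -0.30), and 0 passed (adjusted p from 0.471 to 0.979). Without Vehicle 4 that median was -0.14, without Vehicle 2 -0.48 and without NMN 4 -0.46. COL5A1 was at -0.086 without Vehicle 4 and -0.51 without Vehicle 2, and COL5A2 at -0.19 without Vehicle 4 and -0.53 without NMN 4.

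The tumor NMN 4 was set apart from the other NMN tumors in this class. NMN 1, NMN 2 and NMN 3 lay below the Vehicle range in 4, 7 and 5 of the 8 fibrillar genes, and NMN 4 in 0. In 5 tested collagens (COL1A1, COL1A2, COL3A1, COL5A2 and the fibril-surface gene COL12A1) NMN 1 to 3 all lay below the other 5 tumors; 5.66% of all genes tested showed that order. In 0 tested collagens did NMN 1 to 3 all lie above the other 5, beside 2.43% of all genes. Without NMN 4 the log2 fold changes of COL1A1, COL1A2 and COL3A1 were -0.78, -0.82 and -0.86, and none of them passed (limma, adjusted p = 0.122, 0.0704 and 0.120, against 54 genes, or 0.404%, that passed among all). With Vehicle 3 left out 0.00749% of all genes passed and with the replicate number as a block 0.0150%, and in both 0 collagens did.

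Markers of other cell types were set beside these genes. The 19 skeletal muscle markers summed to between 38.9 and 60.2 TPM in NMN 1 to 3, to 738 TPM in NMN 4 and to between 504 and 2974 TPM in the Vehicle tumors. As in COL1A1, COL1A2 and COL3A1, NMN 1 to 3 were the lowest tumors and NMN 4 lay within the Vehicle range. The 10 pericyte and smooth muscle markers, which include ACTA2 and TAGLN, summed to between 206 and 237 TPM in NMN 1 to 3, to 288 TPM in NMN 4 and to between 240 and 300 TPM in the Vehicle tumors, again with NMN 1 to 3 lowest. NOTCH3 added 85.7 to 122 TPM to that sum without keeping the order (log2 fold change -0.04 ± 0.12). Its level in NMN 3, 111 TPM, lay within the Vehicle range of 90.0 to 122 TPM. The 14 fibroblast markers summed to between 102 and 121 TPM in the NMN tumors and to between 94.5 and 129 TPM in the Vehicle tumors. Of these, 7 were under 1 TPM in every tumor, among them decorin (DCN) and lumican (LUM), the defining proteoglycans of fibroblasts, at no more than 0.02 and 0.05 TPM, and PDGFRA, at no more than 0.71 TPM. The fibulin FBLN1 added 49.5 to 75.4 TPM to the fibroblast sum and was highest in NMN 1. Vehicle 2 was the lowest tumor in that sum, which therefore did not keep the order of COL1A1. Of the 7 tested fibroblast markers 5 had log2 fold changes below 0 (median -0.16) and 0 passed. The other 2, FBLN1 and FBLN2, had log2 fold changes above 0, at 0.22 ± 0.12 and 0.21 ± 0.21. The lowest p among the 7 was that of PDPN, a membrane glycoprotein, at 2.97, 4.43, 3.44 and 5.89 TPM in NMN 1 to 4, against 6.25, 7.11, 5.79 and 7.16 TPM in Vehicle 1 to 4 (log2 fold change -0.58 ± 0.19, limma, adjusted p = 0.459). PDPN too was lowest in NMN 1 to 3, with NMN 4 within the Vehicle range. In whole tumor tissue, fewer cells of a type and less RNA per cell cannot be told apart, and the part of muscle, smooth muscle or fibroblasts in these results was not tested. The values are of human genes, the sources used here do not state how mouse reads were handled, and whether a transcript came from mouse or tumor cells was not tested.

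**Figure D3:**
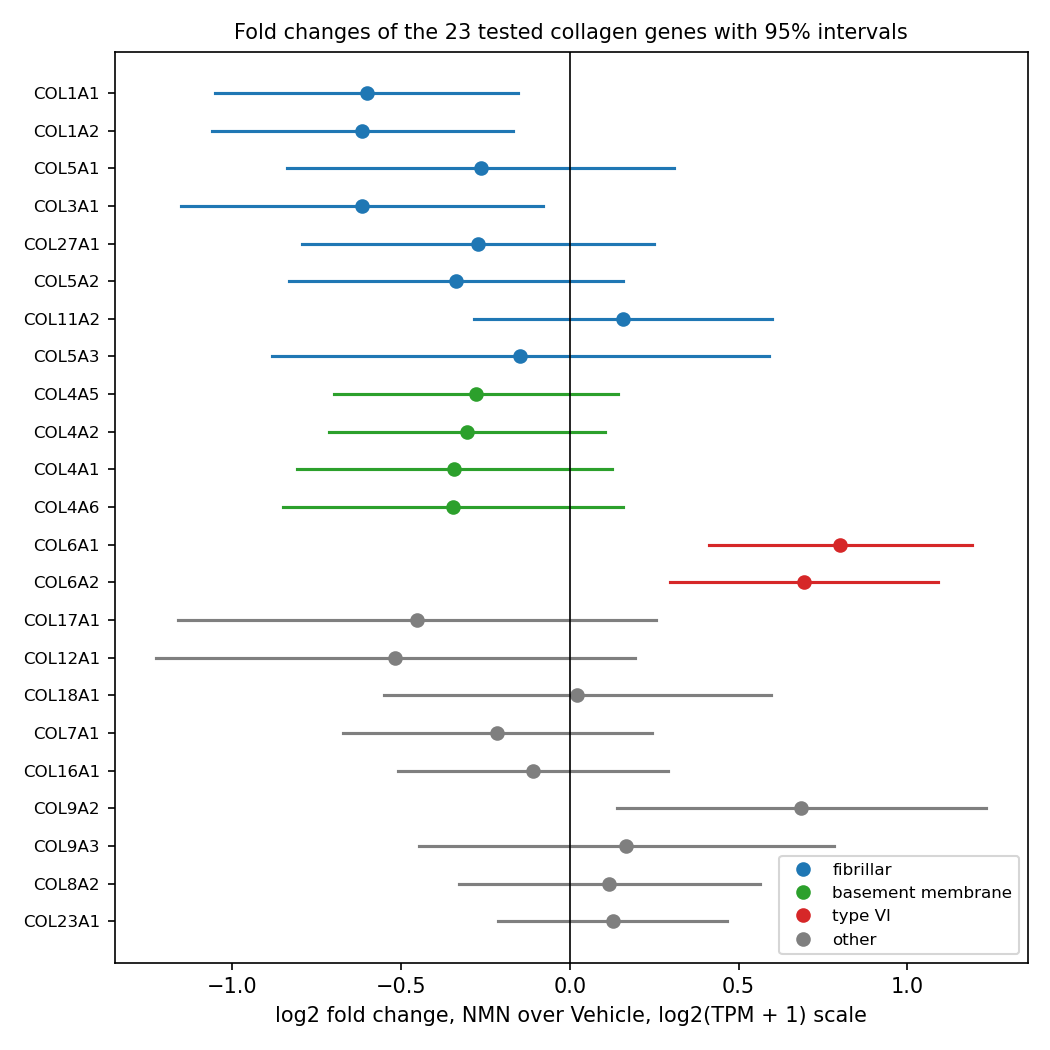
Log2 fold change (NMN minus Vehicle, in units of log2(TPM + 1)) of each of the 23 tested collagens as a point with its 95% interval from limma, colored by class. The intervals of COL6A1, COL6A2 and COL9A2 lie above 0 and those of COL1A1, COL1A2 and COL3A1 below 0, before any adjustment for the number of genes.

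The type IV genes of basement membranes occur in head-to-head pairs, a layout in which 2 genes are transcribed away from each other from a shared stretch. In RefSeq the starts of COL4A1 and COL4A2 on chromosome 13 lie 127 bases apart, those of COL4A3 and COL4A4 on chromosome 2 lie 419 bases apart, and those of COL4A5 and COL4A6 on the X chromosome lie 380 bases apart from the nearer of 2 COL4A6 starts. The stretch between the COL4A1 and COL4A2 starts (126 bases, chr13:110307158-110307283, plus strand) is shown because it separates 1 of the 2 tested pairs. For the other tested pair the 250 bases before the COL4A5 start (chrX:108439588-108439837, plus strand) are shown. They are only part of the 379 bases between that start and the nearer COL4A6 start. Sequences are from RefSeq on GRCh38.p14. Capitals mark the same 3 motifs on either strand.
COL4A1-COL4A2 interval: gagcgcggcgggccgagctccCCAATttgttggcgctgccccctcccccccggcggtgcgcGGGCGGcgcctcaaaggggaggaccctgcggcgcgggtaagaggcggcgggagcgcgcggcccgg
COL4A5 upstream: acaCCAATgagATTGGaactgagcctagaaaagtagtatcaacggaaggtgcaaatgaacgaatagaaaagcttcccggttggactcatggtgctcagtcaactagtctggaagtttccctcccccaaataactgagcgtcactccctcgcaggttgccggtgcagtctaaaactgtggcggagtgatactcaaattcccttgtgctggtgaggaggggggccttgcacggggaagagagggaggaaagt
The interval holds CCAAT 1 time and GGGCGG 1 time, and the COL4A5 stretch holds CCAAT 1 time forward and 1 time reversed but not the GC box. The TATA box letters are in neither. Of all RefSeq windows, 21.1% hold CCAAT in the 126 bases before the start and 32.0% in the 250 bases before it, and 34.6% hold GGGCGG in 126 bases. In GENCODE 29 the gene bounds of COL4A1 (110148963 to 110307233, minus strand) and COL4A2 (110305812 to 110513209, plus strand) overlap, and since the sources used here do not state strandedness, reads from the overlap cannot be assigned with certainty.

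All 4 tested type IV genes had log2 fold changes below 0 (median -0.32, or -0.21 without Vehicle 4), and 0 passed (adjusted p from 0.860 to 0.884). COL4A5, of the alpha 5 chain that basement membranes of kidney and skin also contain, had the highest level of the class. It was at 16.1, 14.3, 18.3 and 18.9 TPM in NMN 1 to 4, against 15.7, 17.2, 21.7 and 30.6 TPM in Vehicle 1 to 4, with overlapping groups and Vehicle 4 the highest. The log2 fold change was -0.28 ± 0.19 (interval from -0.70 to 0.14), and -0.096 without Vehicle 4.

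COL4A2 and COL4A1 encode the chains of the type IV network found in nearly every basement membrane. COL4A2 was at 8.05, 6.61, 7 and 10.4 TPM in NMN 1 to 4, against 9.82, 7.32, 11.2 and 12.2 TPM in Vehicle 1 to 4. COL4A1 was at 6.81, 5.93, 4.48 and 9.22 TPM in NMN 1 to 4, against 8.68, 6.00, 9.73 and 9.77 TPM in Vehicle 1 to 4. In both genes NMN 4 was the highest NMN tumor and Vehicle 2 the lowest Vehicle tumor, and the groups overlapped. Their log2 fold changes were -0.30 ± 0.19 and -0.34 ± 0.21, and that of COL4A6 was -0.34 ± 0.23. COL4A1 was at -0.20 without NMN 3, and COL4A6 at -0.20 without Vehicle 4 and -0.53 without Vehicle 1. COL4A3 and COL4A4, whose chains belong mainly to kidney and lung basement membranes, did not go above 0.12 and 0.28 TPM.

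The highest of the other collagens was COL17A1, a transmembrane collagen of the hemidesmosomes that fix basal epithelial cells to their basement membrane. It was at 34.5, 28.6, 31.7 and 35.9 TPM in NMN 1 to 4, against 30.01, 34.4, 35.9 and 109 TPM in Vehicle 1 to 4. Vehicle 4 stood far above the other 7 tumors, which lay close together. The log2 fold change was -0.45 ± 0.32 (adjusted p = 0.894), and -0.033 without Vehicle 4. In that tumor the summed epithelial and basal markers were also the highest of the 8, as given above, and their part in the COL17A1 value was not tested. Single markers differed: Vehicle 4 was the highest tumor for KRT5, KRT14, KRT17, KRT6A and KRT6B. It was the lowest tumor for EPCAM, KRT8, KRT18, KRT19 and CLDN4.

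COL12A1, a collagen of fibril surfaces (a FACIT collagen), was at 22.5, 24.7, 18.6 and 40.3 TPM in NMN 1 to 4, against 25.4, 30.9, 29.7 and 78.4 TPM in Vehicle 1 to 4. The tumor numbered 4 was the highest of its group in both arms. The log2 fold change was -0.52 ± 0.32 (adjusted p = 0.860), and -0.16 without Vehicle 4. COL7A1, the anchoring fibril collagen below stratified epithelium, was at 24.9, 23.1, 29.6 and 23.7 TPM in NMN 1 to 4, against 21.3, 22.4, 36.4 and 43.1 TPM in Vehicle 1 to 4. The Vehicle values span those of all NMN tumors, and the log2 fold change was -0.21 ± 0.21, or -0.036 without Vehicle 4. COL18A1, a basement membrane proteoglycan whose end fragment is endostatin, was at 27.0, 19.7, 40.0 and 30.7 TPM in NMN 1 to 4, against 20.8, 24.8, 24.2 and 48.9 TPM in Vehicle 1 to 4. Vehicle 4 and NMN 3 were the highest tumors of their groups, which overlapped, and the log2 fold change came to 0.02 ± 0.26 (95% interval -0.55 to 0.59).

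COL9A2, a chain of the cartilage collagen type IX, had the smallest unadjusted p of the other class. It was at 6.50, 6.03, 12.2 and 5.92 TPM in NMN 1 to 4, against 6.54, 4.16, 3.43 and 3.17 TPM in Vehicle 1 to 4. Vehicle 1 reached into the NMN range and NMN 3 was the highest tumor, as for COL6A1 and COL6A2. The log2 fold change came to 0.69 ± 0.25 (95% interval 0.14 to 1.23; adjusted p = 0.553), and 0.46 without NMN 3. COL9A1, which encodes another type IX chain, was listed at 0 in 7 tumors and at 0.04 TPM in NMN 2, and COL9A3 had a log2 fold change of 0.17 ± 0.28. Of 7 chondrocyte markers, 6 were under 1 TPM in every tumor, and aggrecan (ACAN) was listed at 0 in all 8. The other one, the transcription factor gene SOX9, which epithelial cells also express, was at 96.4, 70.5, 128 and 116 TPM in NMN 1 to 4, against 77.2, 57.8, 66.5 and 55.1 TPM in Vehicle 1 to 4. Its groups overlapped, NMN 3 was the highest tumor as for COL9A2, and its part in the COL9A2 result was not tested.

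Among the remaining tested genes the FACIT gene COL16A1 had a log2 fold change of -0.11 ± 0.18, the short-chain network gene COL8A2 one of 0.12 ± 0.20 and the transmembrane gene COL23A1 one of 0.13 ± 0.15. Of the 9 tested genes of the other class 5, COL18A1 included, had log2 fold changes above 0 and 4 below 0 (median 0.02), and 0 passed (adjusted p from 0.553 to 0.997).

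The 21 collagens that were not tested were low in all tumors. Of all 44 genes, 17 were under 1 TPM in every tumor and 8 were listed at 0 in at least 1 tumor, but each was above 0 in at least 1. The highest mean among the 21 was 0.848 TPM, for COL2A1 of cartilage, and the highest single value was 1.59 TPM, for COL11A1 in NMN 4. COL11A1, an activated-fibroblast collagen in carcinoma stroma, was at 0.25, 0.33, 0.67 and 1.59 TPM in NMN 1 to 4, against 0.94, 0.67, 1.37 and 0.93 TPM in Vehicle 1 to 4. COL10A1, another collagen known from such stroma, ran from 0.16 to 0.27 TPM. COL14A1, a FACIT collagen of fibroblasts, ran from 0.24 to 1.18 TPM, and COL15A1, of vessel basement membranes, from 0.03 to 0.18 TPM. For genes at such levels no fold change is given.

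Chains that assemble into 1 molecule, or share 1 promoter region, were compared as ratios within each tumor. Type I collagen contains alpha 1 and alpha 2 chains at 2 to 1, and the COL1A1:COL1A2 ratio of TPM was 2.25, 1.88, 2.50 and 2.05 in NMN 1 to 4 and 2.03, 2.198, 2.09 and 2.203 in Vehicle 1 to 4. The highest ratio was 1.33 times the lowest, while COL1A1 itself spanned 2.46 times. The COL6A1:COL6A2 ratio was 1.195, 1.15, 1.15 and 1.04 in NMN 1 to 4 and 1.03, 1.09, 1.2004 and 0.915 in Vehicle 1 to 4, a span of 1.31 times against 3.04 times for COL6A1. The chains of each of these pairs thus kept to a narrower range of ratios than of levels.

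The COL4A1:COL4A2 ratio was between 0.800 and 0.897 in 7 tumors and 0.640 in NMN 3, although the most common type IV molecule also contains alpha 1 and alpha 2 at 2 to 1. COL4A5:COL4A6 ran from 3.14 to 4.84, and COL5A1:COL5A2 from 1.23 to 2.24. Mean log2 ratios were compared between groups by exact permutation, two-sided, and none of the 5 passed. The differences, NMN minus Vehicle, were 0.020 for COL1A1:COL1A2, -0.055 for COL4A1:COL4A2, 0.11 for COL6A1:COL6A2, 0.12 for COL4A5:COL4A6 and 0.090 for COL5A1:COL5A2 (exact permutation p = 0.8, 0.886, 0.314, 0.486 and 0.714, each 0.886 after adjustment over the 5). With 4 tumors against 4 this test cannot go below 0.0286, and a p of this size does not show that the ratios were alike.

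Ratios between types spanned a wider range than the type I and type VI ratios. COL6A1:COL1A1 was 0.692, 0.669, 0.839 and 0.397 in NMN 1 to 4 and 0.257, 0.299, 0.212 and 0.181 in Vehicle 1 to 4. COL6A2:COL1A2 was 1.30, 1.09, 1.82 and 0.780 in NMN 1 to 4 and 0.504, 0.605, 0.369 and 0.436 in Vehicle 1 to 4. In both ratios every NMN tumor lay above every Vehicle tumor, with NMN 4 the nearest to the Vehicle tumors. These 2 ratios were chosen after the values of their genes were seen, so they are given with no test.

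**Figure D4:**
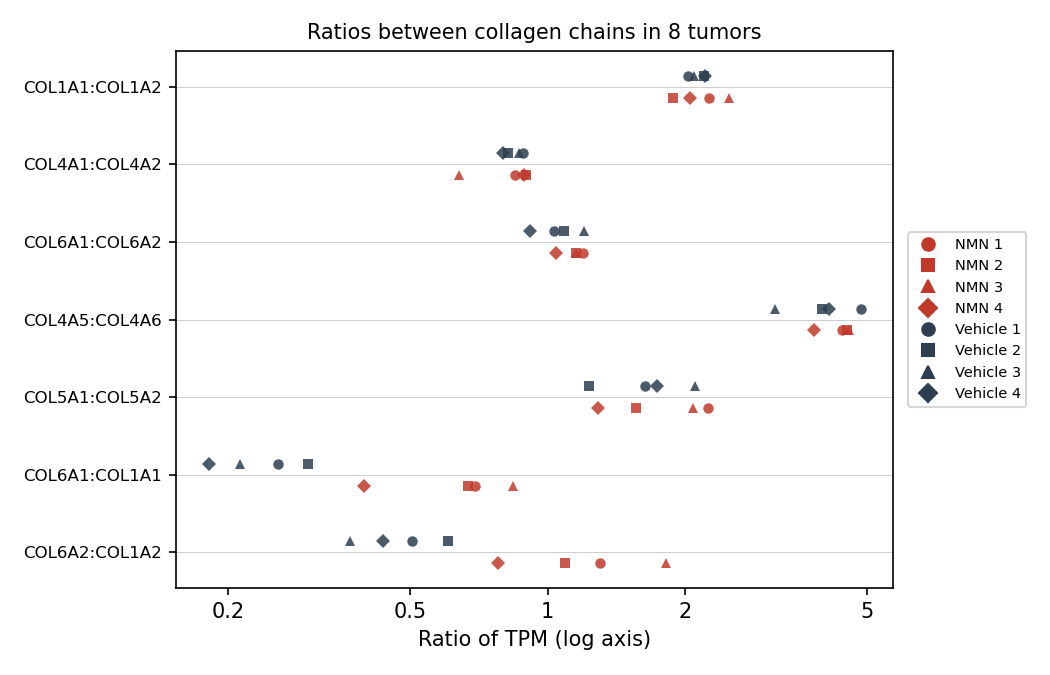
Ratios of TPM (log axis) between collagen chains in the 4 NMN tumors (red) and the 4 Vehicle tumors (dark), with 1 marker shape per tumor number. The upper 5 ratios, within a type, overlap between groups, and the lower 2, of type VI over type I chains, run from 0.181 to 0.605 in the Vehicle tumors and from 0.397 to 1.82 in the NMN tumors, with no overlap within either ratio.

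Genes that modify, fold, cut, crosslink, bind or degrade collagen were taken from 8 lists of 100 genes, of which 86 were tested and 0 passed (smallest adjusted p = 0.348). At an unadjusted p under 0.05 stood 7 with log2 fold changes above 0 and 5 below 0, beside 4.79% and 2.15% of all genes. Of the 86, 46 had log2 fold changes above 0 and 40 below 0 (median 0.0092).

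Collagen chains are hydroxylated on proline and lysine before they fold. PLOD1, a lysyl hydroxylase, was at 141, 128, 199 and 182 TPM in NMN 1 to 4, against 121, 103, 123 and 84.2 TPM in Vehicle 1 to 4, and P4HA1, the catalytic subunit of a prolyl hydroxylase, at 51.1, 50.3, 56.6 and 46.7 TPM, against 45.0, 36.1, 39.8 and 27.5 TPM. In both genes the lowest NMN tumor was above the highest Vehicle tumor, as it also was in PLOD2 of the same list. Over all genes tested 2.08% showed that order. The log2 fold changes of PLOD1 and P4HA1 were 0.58 ± 0.16 and 0.47 ± 0.14 (limma, adjusted p = 0.348 and 0.399). Among 14 tested modifying genes 9 had log2 fold changes above 0 and 5 below 0 (median 0.09).

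Genes of the next steps had log2 fold changes on both sides of 0. Among 12 folding and export genes 8 had log2 fold changes above 0 and 4 below 0; CREB3L1, a transcription factor that switches on collagen genes, was at 13.2 ± 6.08 against 21.8 ± 8.12 TPM (log2 fold change -0.69 ± 0.32), and the export receptor MIA3 at 36.5 ± 5.77 against 43.1 ± 8.17 TPM. BMP1, which cuts the end propeptide from fibrillar collagens, was at 16.6 ± 2.60 against 22.9 ± 5.08 TPM (-0.42 ± 0.17), while PCOLCE, which assists that cut, was at 5.20 ± 0.735 against 4.23 ± 0.940 TPM; of 5 tested cleavage genes 3 had log2 fold changes above 0, among them PCOLCE2 at 0.0067, whose mean TPM was lower in NMN tumors. The crosslinking oxidases LOXL1 and LOXL3 had log2 fold changes of -0.70 ± 0.24 and -0.63 ± 0.24, and LOXL1 was at 9.05, 8.45, 8.24 and 17.1 TPM in NMN 1 to 4, against 12.6, 16.9, 24.0 and 17.4 TPM in Vehicle 1 to 4. For LOXL1, as for type I collagen, NMN 1 to 3 were the lowest tumors and NMN 4 lay within the Vehicle range. Among the 7 crosslinking genes 4 had log2 fold changes above 0 and 3 below 0.

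Receptors and degrading enzymes did not pass either. The integrin subunit gene ITGA2 and the collagen uptake receptor gene MRC2 had log2 fold changes of -0.36 ± 0.21 and -0.29 ± 0.21, or -0.14 and -0.12 without Vehicle 4, and of 6 tested receptors 3 had one above 0. The collagenase gene MMP13 was at 14.3 ± 9.19 against 6.28 ± 3.25 TPM (1.008 ± 0.41), and the lysosomal protease gene CTSL had a log2 fold change of -0.25 ± 0.14; of 8 tested proteases 3 had one above 0 and 5 below 0. Among 20 tested matrix partners 5 had log2 fold changes above 0 and 15 below 0 (median -0.14), the 5 including NID1 at 0.077, whose mean TPM was lower in NMN tumors. Fibronectin (FN1), on which type I collagen fibrils assemble, was at 37.9 ± 12.0 against 20.1 ± 5.96 TPM (0.87 ± 0.25), and fibromodulin (FMOD), a binder of fibrils, at 5.84 ± 1.53 against 10.6 ± 3.40 TPM (-0.73 ± 0.25). Of 14 genes of TGF-beta signaling to the matrix, a known inducer of collagen genes, 11 had log2 fold changes above 0 (median 0.08); its ligand gene TGFB3 was at 6.07 ± 3.09 against 8.41 ± 1.06 TPM (-0.49 ± 0.24). Adjusted p-values of the named pathway genes ran from 0.348 to 0.887.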

How the data were processed

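RNA sequencing of 8 tumors, 4 NMN and 4 Vehicle, was used as 1 table of TPM per gene deposited by the authors, the unit named per the file headers. RSEM 1.2.8, Bowtie2 2.2.5, HISAT2 2.1.0 and GRCh38.p13 are listed in the submitters' processing notes without their roles. Each library sums to 1000000, so counts behind a value are unknown and intervals of counting error cannot be given. limma 3.58.1 in R 4.3.3 was fitted to log2(TPM + 1) with a variance trend and group as the only term, for 13358 genes at 1 TPM or more in at least 4 libraries, two-sided, with Benjamini-Hochberg adjustment over all of them at 0.05. Chain ratios were compared by exact permutation. The fit was tested in 20 simulations with known changes in 200 of 13358 genes. It recovered 41.7% of changes of 1.5 times, 81.2% of 2 times and 97.8% of 4 times, and 4.72% of calls were false. A change of about 1.5 times can therefore be missed.

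The members, classes and lists were chosen with earlier results of these data known. Values in every tumor are given for the 2 members of each class with the highest mean (4 for the other class) and up to 2 per class with the smallest unadjusted p, and up to 2 genes per pathway list are named by smallest p, of which 1 is not reported here. A planned count of protein sequence features was not made, since protein sequences were not used here. Gene positions are from GENCODE 29 and upstream sequences from RefSeq (GRCh38.p14), matched by symbol for 44 and 32 of the 44 collagens. Alternatives were no filter, pseudocounts of 5 and 0.1, median-of-ratios scaling, quantile normalization, the replicate number as a block, each tumor left out, ratios of TPM + 1, and types XV and XVIII joined to type IV.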

Additional observations from a re-analysis of the deposited data

Results flagged for a closer look

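In 5 of 66 groups of 4 tumors examined (23 tested collagens, 5 chain ratios, the 4 class sums and the total, in 2 groups each), 1 tumor stood far from the rest by Dixon's test; chance flags about 1 in 20. COL17A1 in Vehicle 4 was at 108.65 TPM, with the next Vehicle tumor at 35.9 TPM, and COL27A1 in Vehicle 4 at 44.72 TPM, with the next at 21.9 TPM. COL6A1 in NMN 3 was at 85.84 TPM, with the next NMN tumor at 52.7 TPM, and COL9A2 in NMN 3 at 12.21 TPM, with the next at 6.50 TPM. COL11A2 in NMN 2 was at 3.51 TPM, with the next NMN tumor above it at 6.40 TPM.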

How the results depend on the processing

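Of the 23 tested collagens, 19 kept the direction of their fold change under every setting run, and 0 passed in any of them. The number of all genes that passed, 0, was 2 with the replicate number as a block and ran from 0 to 54 with 1 tumor left out (54 without NMN 4, 1 without Vehicle 3). With the block 5 collagens, against 3, were lower at an unadjusted p under 0.05, and the higher ones stayed at 3. Of all genes 376, against 287, were lower at that p and 718, against 640, were higher. Over all genes tested, same-numbered tumors did not deviate together (correlations of deviations from -0.123 to 0.0258, and none correlated best with its own number). The number was therefore not taken as pairing. COL1A1 and COL1A2 did rise from tumor 1 to tumor 4 in both groups. With the block their limma adjusted p was 0.140 and 0.198, against 0.496 and 0.471. For COL6A1 it was 0.191, against 0.268. The type VI median of 0.75 was 0.0037 with no filter, where the 3 low genes enter. After quantile normalization the genes at an unadjusted p under 0.05 were 640 higher and 514 lower, against 640 and 287. The lower collagens at that p were then 4, against 3. With 1 tumor left out, log2 fold changes ran from -0.35 to 0.17 for COL5A3, from -0.14 to 0.28 for COL18A1, from -0.20 to 0.064 for COL16A1 and from -0.14 to 0.32 for COL9A3. Differences of mean log2 ratios ran from -0.051 to 0.086 for COL1A1:COL1A2, from -0.10 to 0.059 for COL4A1:COL4A2 and from -0.050 to 0.24 for COL5A1:COL5A2. With no change of sign, leaving out 1 tumor moved COL11A2 between 0.058 and 0.34, COL7A1 between -0.36 and -0.036, COL8A2 between 0.026 and 0.27, MMP13 down to 0.66 (without NMN 2), PCOLCE down to 0.13 (without Vehicle 4), and the ratio differences of COL6A1:COL6A2 between 0.041 and 0.17 and of COL4A5:COL4A6 between 0.0060 and 0.21. The median of the other class ran from -0.12 to 0.19. The cause of these shifts was not tested.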
